A study of Mus musculus with 4 samples.

Results

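The R-spondins and the secreted WNT inhibitors made by intestinal stromal cells were described here as 10 genes of the 28692 gene rows. They are *Rspo1*, *Rspo2* and *Rspo3*, the secreted Frizzled-related genes *Sfrp1*, *Sfrp2*, *Sfrp4* and *Frzb*, and *Wif1*, *Dkk2* and *Dkk3*. The members were chosen by name, and their unique molecular identifiers (UMIs, 1 per captured transcript) were read in all 4 single-cell matrices by intestine and by marker-gated cell class. All 10 have a row in each matrix, and UMIs of 9 were found in kept cells of small intestine replicate 1, where *Sfrp2* had none, and of 10 in the other libraries.

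Stromal cells were taken from the lamina propria of untreated female C57BL6/Nrj mice, 8 to 10 weeks old, with the outer muscle layer removed. The compared groups are the small intestine and the colon, with 2 droplet libraries each (replicates 1 and 2), from 2 experiments that each pooled 3 mice, so the spread between replicates is one between pools and no value belongs to 1 animal. All groups share the same strain, sex, age and sort (live cells, negative for CD45, Ter119, CD31, BP3, EpCAM and L1CAM, positive for integrin β1), and there is no treated or mutant group. Levels are given in CPM, the UMIs of a gene over all UMIs of the cells summed, times 1e+06.

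WNT proteins are secreted ligands that keep the stem cells at the base of intestinal crypts dividing. R-spondins strengthen this signal: they bind LGR receptors and thereby protect the WNT receptors (Frizzleds) from removal by the ligases RNF43 and ZNRF3. SFRP proteins, FRZB and WIF1 bind WNT ligands outside the cell, DKK2 binds the co-receptors LRP5 and LRP6, and DKK3 is a divergent relative whose part in WNT signalling is less clear. Stromal cells are a known source of both the enhancers and the inhibitors in the gut.

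After filtering, 1808 to 14350 cells per library were kept, of matrices with 14341443 to 52269372 UMIs in all. The replicate 1 libraries hold fewer cells (1808 and 2386, against 14350 and 12153) and are deeper per cell, with medians of 6949.5 UMIs in small intestine and 8810 UMIs in colon against 2734.5 and 3881 UMIs in the replicate 2 libraries. They were also counted with another version of Cell Ranger, and the value of each same-numbered pair is therefore given beside the changes below. They also hold more endothelial cells (354 and 242, against 4 and 25 in the replicate 2 libraries), although the sort excluded CD31+ cells. At most 69 barcodes were shared by any pair of libraries. A marker gate placed 54.1% to 78.6% of the cells of a library in PDGFRαhi fibroblasts (FB), CD81+ FB, other PDGFRαlo FB, smooth muscle cells (SMC) or pericytes. Between 16.8% and 36.6% stayed unassigned, and the others were classed as endothelial, immune, glial, epithelial or nerve-associated cells or interstitial cells of Cajal.

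Among the 4 tested classes each class list was highest in the class it defines in every library. Other classes carried markers too, and the cases below touch the members. Other PDGFRαlo FB carried 2497 and 2009 CPM of the 7 CD81+ FB markers in small intestine, against 1046 and 1136 CPM in colon. The part of these in the colon changes of that class was not tested. PDGFRαhi FB carried 5497 and 4850 CPM of the 7 markers of other PDGFRαlo FB in small intestine, and 6015 and 4494 CPM in colon. PDGFRαhi FB of small intestine replicate 2 carried 530.4 CPM of the 7 CD81+ FB markers, against 178 CPM in small intestine replicate 1 and 66.7 and 76.5 CPM in colon. Small intestinal SMC carried 10405 and 8248 CPM of the 7 markers of other PDGFRαlo FB (mostly *Adamdec1* and *Ccl11*), against 1647 and 1353 CPM in colonic SMC. They also carried 450 and 1500.5 CPM of the CD81+ FB markers, against 147 and 213 CPM in colonic SMC. Pericytes numbered 47 to 116 cells per library and were not tested. They held more of the 7 other PDGFRαlo FB markers (6031, 7038, 3233 and 3466 CPM in both small intestinal and then both colonic libraries) than of their own 5 markers (2310, 1309, 2615 and 1078 CPM), and those of small intestine replicate 2 also held 2159 CPM of CD81+ FB markers, beside 1777 CPM of *Sfrp1* and 93.5 CPM of *Rspo3*. No member is a gate marker.

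To see which class makes which factor, each class was set against the mean of the other 3 tested classes, with library as a block (edgeR quasi-likelihood test on summed UMIs; calls have a Benjamini-Hochberg adjusted p below 0.05). CD81+ FB were higher for 6 of the 10 members, comprising all 3 R-spondins, *Sfrp1*, *Sfrp2* and *Sfrp4*, and lower for *Wif1* and *Dkk3*. PDGFRαhi FB were higher for *Wif1* and *Dkk3* and lower for *Rspo2*, *Rspo3*, *Sfrp1*, *Sfrp2*, *Sfrp4* and *Frzb*. Other PDGFRαlo FB were higher for *Sfrp1*, *Sfrp2* and *Frzb*, and SMC were higher for *Dkk3* and lower for *Sfrp2* and *Sfrp4*. *Dkk2* was called for no class. Classes differ in many genes: of 11526 tested, 31.2% were called for PDGFRαhi FB (15.5% higher, 15.7% lower), 35.8% for CD81+ FB (19.6% higher, 16.2% lower), 14.4% for other PDGFRαlo FB (8.92% higher, 5.43% lower) and 35.4% for SMC (17.5% higher, 17.9% lower). All 10 members entered these tests. *Rspo1*, *Rspo2* and *Sfrp4* reached the level that the low-count filter asks for in all 4 libraries of CD81+ FB and of no other class, *Frzb* in those of other PDGFRαlo FB and *Wif1* in those of PDGFRαhi FB, and *Sfrp2* reached it in colon alone. Such members had to differ between classes, so their calls are descriptions, and nothing is read from the count.

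**Figure D1:**
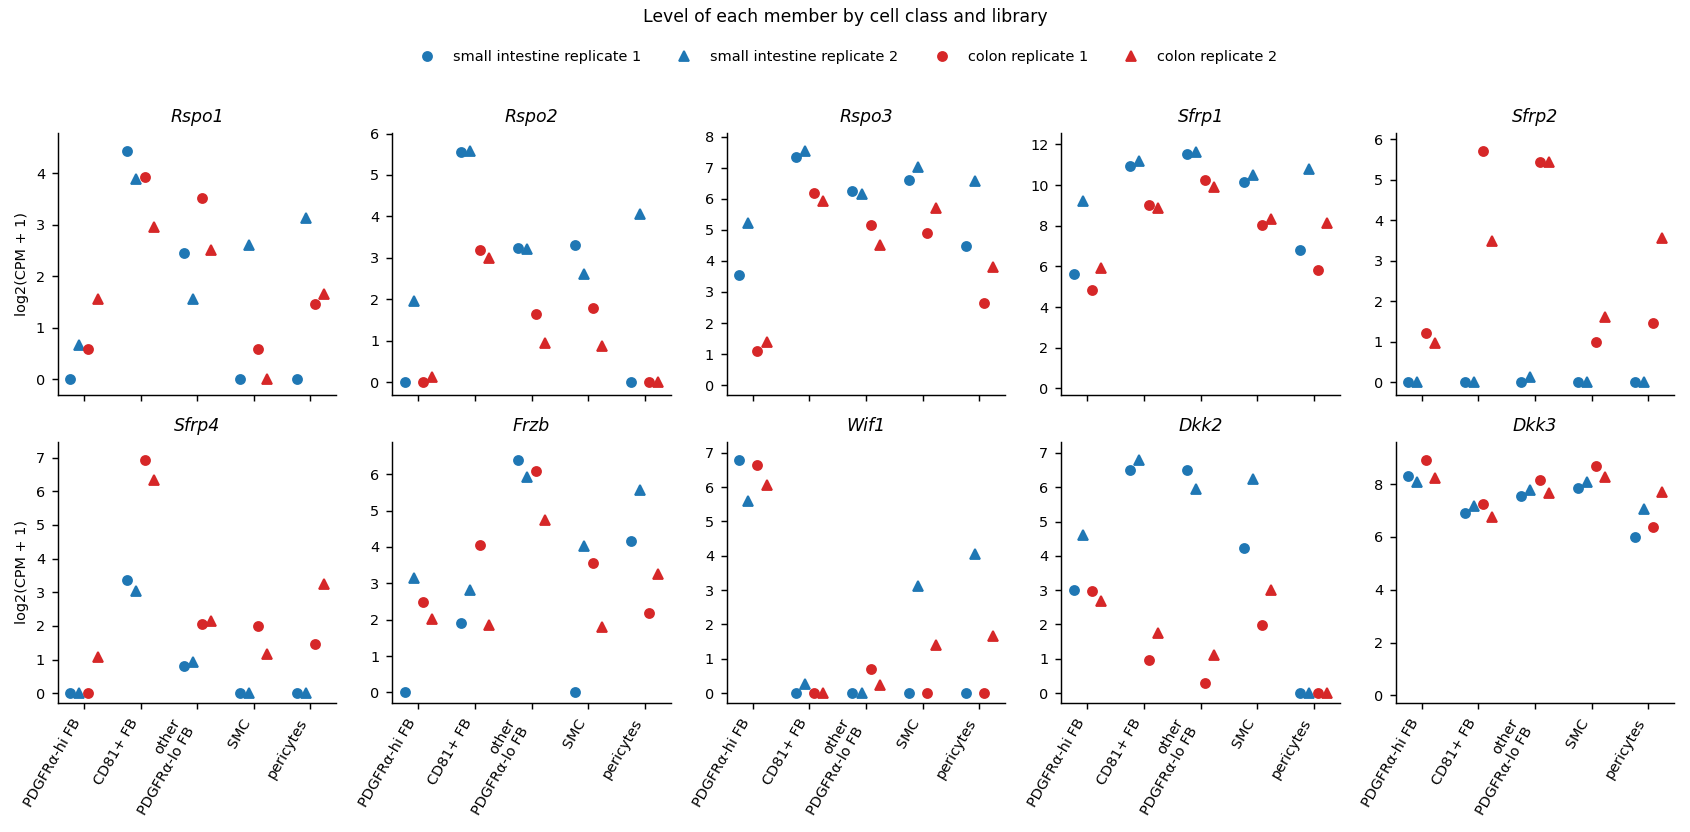
Level of each of the 10 genes (y axis, log2 of CPM + 1) in 5 cell classes (x axis) of 4 libraries, with 1 point per library and class, small intestine in blue, colon in red, replicate 1 as circles and replicate 2 as triangles. *Wif1* stands out in PDGFRαhi FB, *Sfrp4* in colonic CD81+ FB, and *Sfrp2* is at or near 0 in all small intestinal points.

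To compare both intestines, colon was set against small intestine within each class (2 libraries against 2, no block). In CD81+ FB 3 of the 9 members tested were called, *Sfrp4* higher and *Rspo2* and *Dkk2* lower in colon, where 0.394% of 11666 genes were called (0.146% higher, 0.249% lower). In other PDGFRαlo FB 2 of the 9 tested were called, *Sfrp2* higher and *Dkk2* lower, where 0.47% of 12139 genes were called (0.255% higher, 0.214% lower). No member was called in PDGFRαhi FB (0 of 6 tested, 1 with an unadjusted p under 0.05, 1 called by DESeq2) or in SMC (0 of 5 tested, 3 with an unadjusted p under 0.05, 2 called by DESeq2), against 0.791% of 11630 genes in PDGFRαhi FB (0.361% higher, 0.43% lower) and 0.45% of 9343 in SMC (0.118% higher, 0.332% lower). Some members passed the filter on low counts through the intestine where they are high, and so had to differ. They are *Sfrp2* (through colon) and *Dkk2* (through small intestine) in CD81+ FB and other PDGFRαlo FB, and also *Rspo2* and *Sfrp4* in other PDGFRαlo FB, *Rspo3* in PDGFRαhi FB and *Dkk2* in SMC. Both calls in other PDGFRαlo FB and that of *Dkk2* in CD81+ FB are thus descriptions. *Frzb* in PDGFRαhi FB passed the filter through colon, with near equal means of 3.92 CPM in small intestine and 3.81 CPM in colon. With same-numbered libraries as a block (the number goes with Cell Ranger version and barcode starts), 3, 6, 8 and 3 members were called in PDGFRαhi FB, CD81+ FB, other PDGFRαlo FB and SMC, where 2722, 686, 1626 and 765 genes were called. The blocked adjusted p is given for most calls that it turns. This blocked fit leaves 1 residual degree of freedom, so its p-values lean on the spread shared over genes. Less RNA of a gene in a summed class and fewer cells of that class that make it cannot be told apart. The replicates are pools of mice, and p-values of the fit without a block measure the spread between 2 libraries per intestine.

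**Figure D2:**
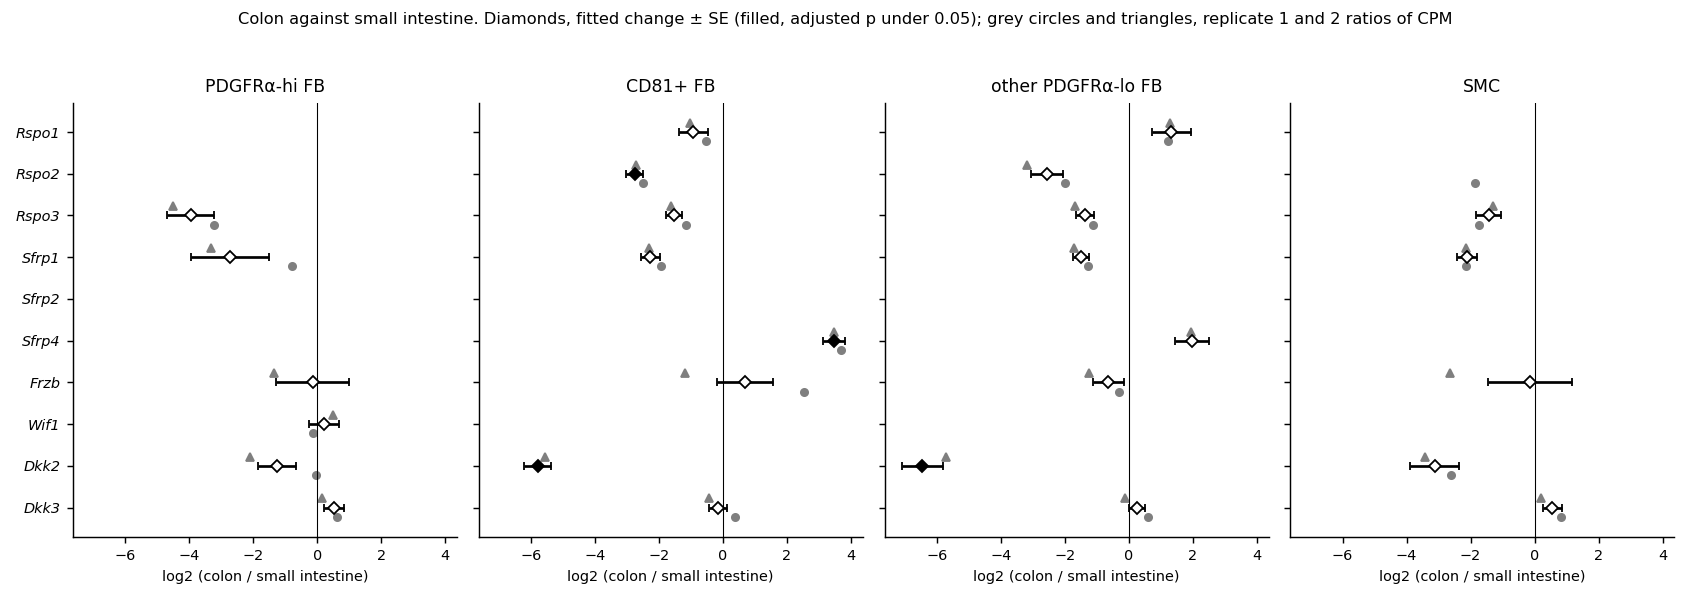
Change from small intestine to colon (x axis, log2) for each member (rows) in 4 classes, with the fitted change ± SE as diamonds, filled where the adjusted p is under 0.05, and the ratio of CPM in same-numbered libraries as grey circles (replicate 1) and triangles (replicate 2), drawn where both libraries hold more than 3 UMIs. *Sfrp2* has no point because small intestine holds at most 1 UMI in a class. The called members in CD81+ FB are *Rspo2* (-2.76), *Sfrp4* (3.47) and *Dkk2* (-5.79).

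*Rspo1* (GRCm38 chr4:124986430-125009099, plus strand, protein-coding) encodes an R-spondin. In CD81+ FB it was at 20.6 and 13.8 CPM in small intestine replicates 1 and 2 versus 14.3 and 6.73 CPM in the colon replicates. In other PDGFRαlo FB it was at 4.44 and 1.96 CPM in small intestine versus 10.4 and 4.72 CPM in colon, and no library of PDGFRαhi FB exceeded 1.93 CPM. CD81+ FB were above other PDGFRαlo FB in 4 of 4 libraries, and 3.39 ± 0.56 (log2, SE) above the mean of the other classes (edgeR adjusted p = 0.000587). Neither colon change passed the test, with -0.92 ± 0.46 in CD81+ FB and 1.32 ± 0.61 in other PDGFRαlo FB, and the second passes with the replicate block (edgeR adjusted p = 0.0342). The signs of these changes were opposite, negative in both same-numbered pairs of CD81+ FB (-0.53 and -1.04) and positive in both pairs of other PDGFRαlo FB (1.23 and 1.27), and their difference of -2.26 ± 0.61 had an adjusted p of 0.0755.

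*Rspo2* (chr15:43020794-43170826, minus strand) encodes a second R-spondin. CD81+ FB held 46.1 and 46.6 CPM in small intestine versus 8.10 and 7.03 CPM in colon, with no overlap between intestines. It was 3.61 ± 0.25 (log2) above the other classes there (adjusted p = 2.77e-07), the class holding 57.7% to 76.6% of a library's *Rspo2* UMIs in 3 libraries and 42.5% in colon replicate 1. The fall in colon was -2.76 ± 0.27 (edgeR adjusted p = 0.0415), with -2.51 and -2.73 in the same-numbered pairs. The call is lost when small intestine replicate 1 (adjusted p = 0.0840), small intestine replicate 2 (0.0940) or colon replicate 2 (0.0628) is left out, while the change stays between -2.82 and -2.69. Other PDGFRαlo FB were lower in level, at 8.50 and 8.27 CPM in small intestine versus 2.13 and 0.912 CPM in colon, a change of -2.55 ± 0.50 that did not pass without the block (adjusted p = 0.149) but did with it (0.00306).

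*Rspo3* (chr10:29452416-29535867, minus strand) encodes the third R-spondin measured, and it was found in all 5 classes of every library. In CD81+ FB it was at 161 and 183 CPM in small intestine versus 72.5 and 59.3 CPM in colon. SMC followed, with 96.3 and 128 CPM in small intestine versus 29.0 and 51.6 CPM in colon, and then other PDGFRαlo FB, with 75.4 and 69.6 CPM and 34.9 and 21.8 CPM. CD81+ FB exceeded SMC in 4 of 4 libraries, whereas SMC exceeded other PDGFRαlo FB in 3 of 4. PDGFRαhi FB were the lowest in each library, at 10.6 and 36.3 CPM in small intestine versus 1.14 and 1.60 CPM in colon. The class contrast was 2.14 ± 0.33 for CD81+ FB (adjusted p = 0.000617) and -3.35 ± 0.47 for PDGFRαhi FB (adjusted p = 0.000296).

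Colonic *Rspo3* was below the small intestinal level in both libraries of all 4 classes, and none of the 4 changes passed the test. They were -1.52 ± 0.25 in CD81+ FB (adjusted p = 0.103), -1.36 ± 0.29 in other PDGFRαlo FB (0.172), -1.44 ± 0.40 in SMC (0.238) and -3.95 ± 0.73 in PDGFRαhi FB (0.110). With the replicate block all 4 are called (edgeR adjusted p = 0.00559, 0.000926, 0.00426 and 2.25e-25 in the same order). That fit leaves 1 residual degree of freedom. The last value comes from same-numbered pairs of -3.21 and -4.50 and is not a measure of the spread between replicates alone. With the Wald test of DESeq2 the changes in CD81+ FB, other PDGFRαlo FB and PDGFRαhi FB were called. The SMC change goes with the markers of both FB classes in small intestinal SMC, whose part in it was not tested. The change in PDGFRαhi FB goes with the CD81+ FB markers of small intestine replicate 2 given above, whose part in it was not tested, and it was -3.21 in the replicate 1 pair, where those markers are lower. *Rspo3* was also found in endothelial cells, at 86.8 CPM in small intestine replicate 1 and 34.2 CPM in colon replicate 1. At 1000 UMIs per cell, 7.06% and 6.20% of these endothelial cells had an *Rspo3* UMI, compared with 14.7%, 15.1%, 5.90% and 5.32% of CD81+ FB in the 4 libraries. *Rspo1* and *Rspo2* had no UMI in endothelial cells (0 of 354 in small intestine replicate 1, which allows up to 0.847% of cells with a UMI).

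*Sfrp1* (chr8:23411502-23449632, plus strand) encodes a secreted protein that binds WNT ligands. Other PDGFRαlo FB were highest, at 2987 and 3188 CPM in small intestine versus 1225 and 972 CPM in colon. CD81+ FB followed in 4 of 4 libraries, at 1970.4 and 2351 CPM in small intestine versus 515 and 471 CPM in colon. SMC came next among the tested classes, at 1145 and 1419 CPM in small intestine versus 257 and 324 CPM in colon, and were above pericytes in 3 of 4 libraries. Against the other classes it was 2.27 ± 0.37 higher in other PDGFRαlo FB (adjusted p = 0.00275) and 1.33 ± 0.38 higher in CD81+ FB (adjusted p = 0.0191). The second call is lost without colon replicate 1 (0.0743), without colon replicate 2 (0.0940) and with doublets kept (0.0503), and the first without colon replicate 2 (0.0508).

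At 1000 UMIs per cell, 90.6% and 91.6% of small intestinal other PDGFRαlo FB had an *Sfrp1* UMI, against 64.6% and 54.3% of the colonic ones. In endothelial cells of the same libraries the share was 1.41% in small intestine replicate 1 and 0.413% in colon replicate 1, at median depths of 4498.5 and 5177 UMIs against 7818 and 9091 UMIs in other PDGFRαlo FB before thinning. Without thinning, 84.7% to 99.2% of other PDGFRαlo FB had an *Sfrp1* UMI. *Sfrp1* was thus found in over 50% of the cells of the class in every library, and in a smaller share of the colonic cells at equal depth.

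In each of the 4 tested classes both colon libraries were lower in *Sfrp1* than their same-numbered small intestinal library, and none of the changes passed the test. They were -2.73 ± 1.22 in PDGFRαhi FB (adjusted p = 0.515), -2.27 ± 0.29 in CD81+ FB (adjusted p = 0.0569), -1.49 ± 0.26 in other PDGFRαlo FB (0.106) and -2.11 ± 0.31 in SMC (0.0591). Same-numbered pairs gave -0.79 and -3.31, -1.94 and -2.32, -1.29 and -1.71, and -2.15 and -2.13 in that order of classes. With the replicate block the last 3 are called (edgeR adjusted p = 0.00349, 0.00112 and 2.67e-05). DESeq2 also called these 3, and classes taken from clusters gave calls in CD81+ FB (0.0368) and SMC (0.0121). The SMC change goes with the markers of other PDGFRαlo FB and CD81+ FB in small intestinal SMC, whose part was not tested. PDGFRαhi FB held 48.0 and 594 CPM in small intestine versus 27.8 and 60.01 CPM in colon. The spread between small intestinal libraries goes with the CD81+ FB markers of replicate 2, whose part in it was not tested.

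*Sfrp2* (chr3:83766321-83774316, plus strand) encodes a related WNT-binding protein and was found almost only in colon. In small intestine 0 UMIs were counted in all 1808 kept cells of replicate 1 and 2 UMIs in the 14350 cells of replicate 2. In colon the kept cells held 616 and 1095 UMIs, or 28.9 and 22.8 CPM. Other PDGFRαlo FB were at 42.0 and 41.9 CPM in colon, and CD81+ FB at 51.0 and 10.1 CPM, so that CD81+ FB were higher in colon replicate 1 and other PDGFRαlo FB in colon replicate 2. Cells that the gate left unassigned were at 73.3 and 47.2 CPM and held 45.0% and 40.6% of the colonic *Sfrp2* UMIs. In other PDGFRαlo FB small intestine held 1 UMI of 13955334, a colon to small intestine ratio of 585 (95% counting interval 105 to 23148). The edgeR call (adjusted p = 0.0218) is of a gene that passed the filter through colon alone. In CD81+ FB small intestine held 0 UMIs. Both colon libraries summed, at 17.1 CPM, were at least 75.5-fold higher, against a floor of 3 counts over both small intestinal libraries. This bound rests on colon libraries at 51.0 and 10.1 CPM, and would be lower with colon replicate 2 alone. The change did not pass edgeR's test over libraries (adjusted p = 0.16, against 0.00270 with the replicate block and 0.0035 with DESeq2).

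Other PDGFRαlo FB of colon were split into sub-gates by 1 UMI of a marker. Cells with a *Thy1* (CD90) UMI and no *Fgfr2* UMI were at 128 and 91.2 CPM of *Sfrp2* in replicates 1 and 2. Cells with an *Igfbp5* UMI and no *Fgfr2* UMI were at 87.5 and 46.9 CPM, and cells with an *Fgfr2* UMI at 30.6 and 33.0 CPM. The order *Thy1*, *Igfbp5*, *Fgfr2* was the same in both colonic libraries, the first 2 gates share cells, and no test was made. Share of cells with a UMI was low, with 9.09% and 8.64% of colonic other PDGFRαlo FB and 2.51% and 3.51% at 1000 UMIs per cell. No endothelial cell had an *Sfrp2* UMI in any library. The class contrasts of *Sfrp2* rest on colon, since small intestine holds next to none, and the higher calls in CD81+ FB and other PDGFRαlo FB are not made by DESeq2 (adjusted p = 0.490 and 0.254).

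The 250 bases before the RefSeq start of *Sfrp2* and *Dkk2* are shown because these members differed most between intestines, in opposite directions. Both lie on chromosome 3 of GRCm38.p6, plus strand, at chr3:83766071-83766320 and chr3:132085042-132085291, directly before the first base of the GENCODE gene. Capitals mark matches on either strand to 4 motifs. They are the TATA box, spelled TATAAA, the CCAAT box, the GC box, spelled GGGCGG, and the core of a TCF/LEF site, spelled CTTTGAT.

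Sfrp2: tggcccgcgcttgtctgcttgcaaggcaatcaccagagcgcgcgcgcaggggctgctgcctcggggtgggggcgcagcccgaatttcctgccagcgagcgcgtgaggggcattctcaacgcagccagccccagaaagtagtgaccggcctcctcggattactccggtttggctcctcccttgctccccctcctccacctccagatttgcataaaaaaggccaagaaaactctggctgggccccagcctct
Dkk2: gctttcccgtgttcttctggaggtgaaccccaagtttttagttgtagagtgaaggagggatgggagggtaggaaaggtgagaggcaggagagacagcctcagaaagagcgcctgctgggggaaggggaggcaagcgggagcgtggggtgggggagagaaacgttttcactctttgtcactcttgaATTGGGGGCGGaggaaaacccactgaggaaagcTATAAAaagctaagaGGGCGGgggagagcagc

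The *Dkk2* window held 1 TATA box, 1 CCAAT box and 2 GC boxes, of which 1 directly adjoins the CCAAT box (read as ATTGG on the printed strand), and the *Sfrp2* window held none of the 4 motifs. Over 32851 RefSeq promoters, 12.4% of such windows hold the TATA box letters, 33.8% those of the CCAAT box, 32.7% those of the GC box and 3.2% those of the TCF/LEF core. GC content was 63.6% for *Sfrp2* and 55.6% for *Dkk2*, against a median of 52.4%. A match in letters is a description only. Of the 10 members 5 were matched in the promoter table by symbol.

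*Sfrp4* (chr13:19623104-19632994, plus strand) encodes another WNT-binding protein of the SFRP family. CD81+ FB held 9.28 and 7.25 CPM in small intestine versus 120.1 and 80.2 CPM in colon, with no overlap. The level was higher in CD81+ FB than in the other classes by 5.78 ± 0.30 (log2, adjusted p = 6.62e-08), and no other tested class exceeded 3.40 CPM in any library. The rise in colon was 3.47 ± 0.35 (edgeR adjusted p = 0.0415), with 3.69 and 3.47 in the same-numbered pairs. It stays between 3.20 and 3.71 when 1 library is left out, but the call is lost without small intestine replicate 1 (adjusted p = 0.0840) or replicate 2 (0.130). At 1000 UMIs per cell 1.47% and 0.679% of small intestinal and 6.27% and 6.22% of colonic CD81+ FB had an *Sfrp4* UMI, and no endothelial cell had one.

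Among colonic CD81+ FB, those with a *Pi16* or *Dpp4* UMI were at 229 and 109.8 CPM of *Sfrp4*, and those with an *Ackr4* UMI at 177 and 80.6 CPM. In small intestine the first gate held 15.2 and 30.2 CPM and the second 7.22 and 8.59 CPM, so the *Pi16* or *Dpp4* gate was higher in 4 of 4 libraries. The gates share cells. Of 98 and 431 small intestinal and 96 and 1230 colonic cells in the first gate, 78 and 197, and 47 and 380, were also in the second. Cells in both were at 13.5 and 34.9 CPM in small intestine and 300 and 96.8 CPM in colon. *Sfrp4* was higher still in colonic interstitial cells of Cajal, at 1034 and 336 CPM. Their 3 markers summed to 19.1 and 9.17 CPM in colonic and 7.91 and 9.19 CPM in small intestinal CD81+ FB, with 2 of the 3 at 0 in small intestine replicate 1 and 1 at 0 in colon replicate 1. The 4 markers of nerve-associated cells summed to 57.7 and 107.5 CPM in colonic and 39.9 and 45.9 CPM in small intestinal CD81+ FB, none at 0. The part of these cells in the colonic *Sfrp4* level was not tested.

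*Frzb* (chr2:80411970-80447625, minus strand) encodes a soluble Frizzled-related protein. It was highest in other PDGFRαlo FB in 4 of 4 libraries, at 82.8 and 60.3 CPM in small intestine versus 67.1 and 25.6 CPM in colon. This class was 3.36 ± 0.33 (log2) above the others (adjusted p = 0.000117) and held 48.8% to 62.9% of a library's *Frzb* UMIs. PDGFRαhi FB were lower than the other classes, with a contrast of -1.66 ± 0.46 (adjusted p = 0.0177), a call lost without small intestine replicate 2 (0.0538), colon replicate 1 (0.152) or colon replicate 2 (0.0508). The colon change in other PDGFRαlo FB was -0.64 ± 0.48 and did not pass (adjusted p = 0.834, against 0.0461 with the replicate block). Cells of this class with an *Fgfr2* UMI were at 84.9 and 64.2 CPM in small intestine versus 70.5 and 32.0 CPM in colon, and those with an *Igfbp5* UMI and no *Fgfr2* UMI at 80.0 and 54.5 CPM and 49.7 and 22.3 CPM, lower in 4 of 4 libraries.

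*Wif1* (chr10:121033960-121100650, plus strand) encodes WNT inhibitory factor, which binds WNT ligands. PDGFRαhi FB held 109.3 and 47.1 CPM in small intestine versus 99.8 and 66.1 CPM in colon, and 88.5% to 95.5% of the *Wif1* UMIs of each library. Their level was 7.79 ± 0.35 (log2) above that of the other classes (adjusted p = 1.77e-08), and this held with each library left out (7.62 to 8.74). In CD81+ FB only 2 UMIs were counted in small intestine and 0 in colon, and in other PDGFRαlo FB 0 and 5. The intestines overlapped in PDGFRαhi FB, with a colon change of 0.22 ± 0.46 (adjusted p = 0.979) and a sign that differed between same-numbered pairs (-0.13 and 0.49).

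Not all PDGFRαhi FB carried *Wif1* to the same level. Those with a *Thbd* UMI were at 111 and 46.6 CPM in small intestine versus 118 and 101 CPM in colon. Those with a *Cd9* UMI and no *Thbd* UMI were at 34.0 CPM in small intestine replicate 2 and at 1.05 and 19.4 CPM in colon, and they were too few (under 20 cells) in small intestine replicate 1. The *Thbd* gate was thus higher in 3 of 3 libraries. At 1000 UMIs per cell 8.13%, 4.73%, 7.03% and 6.37% of PDGFRαhi FB had a *Wif1* UMI in the libraries in the order small intestine replicate 1, replicate 2, then colon, and no endothelial cell had one.

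**Figure D3:**
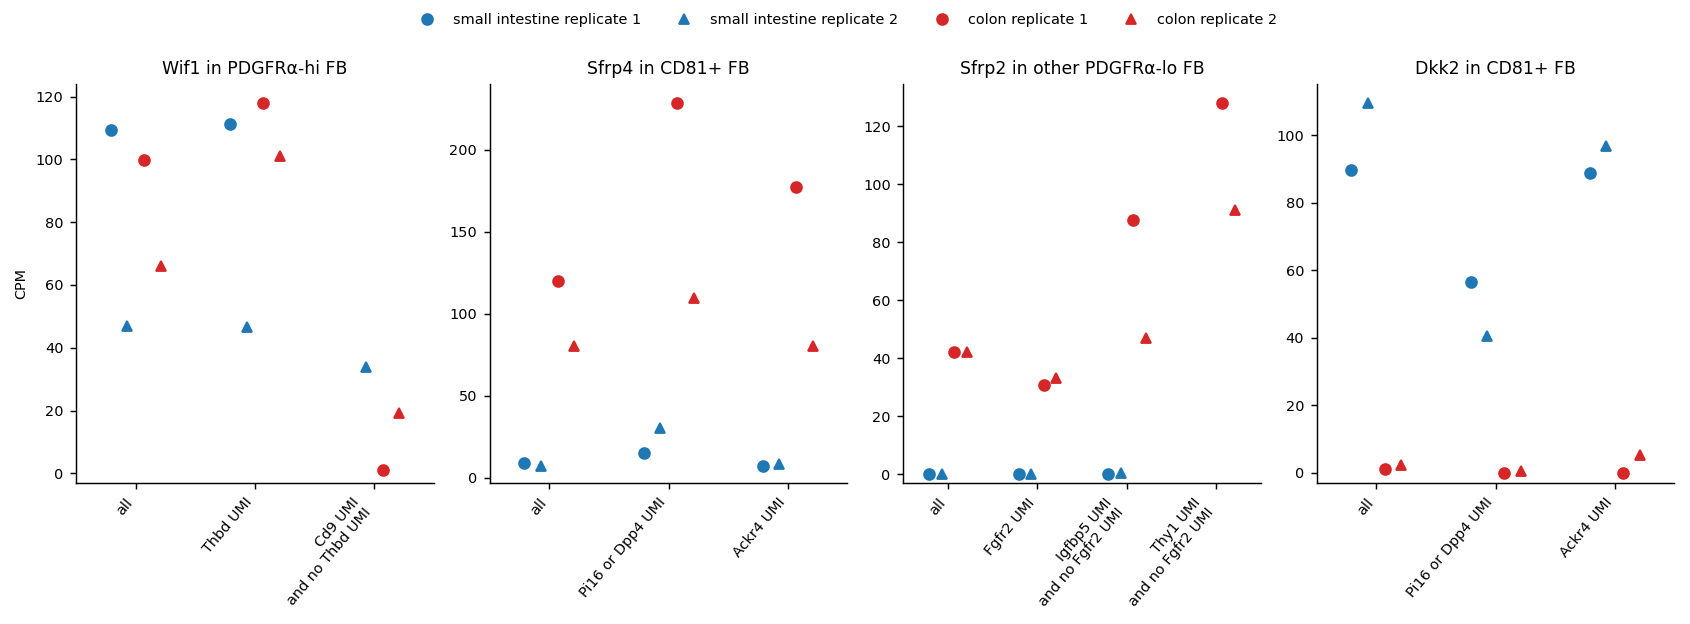
Level in CPM (y axis) of *Wif1*, *Sfrp4*, *Sfrp2* and *Dkk2* in a class as a whole and in its cells with the named marker UMIs (x axis), with 1 point per library, small intestine in blue, colon in red, replicate 1 as circles and replicate 2 as triangles, and gates under 20 cells left out. *Wif1* is at 118 and 101 CPM in colonic PDGFRαhi FB with a *Thbd* UMI and at 1.05 and 19.4 CPM in those with *Cd9* and no *Thbd* UMI.

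*Dkk2* (chr3:132085292-132180304, plus strand) encodes a Dickkopf protein that binds the WNT co-receptors, and it had the largest fitted fall in colon among the tested members of CD81+ FB and of other PDGFRαlo FB. In CD81+ FB it was at 89.7 and 109.5 CPM in small intestine versus 0.953 and 2.34 CPM in colon. In other PDGFRαlo FB it was at 89.8 and 61.0 CPM in small intestine versus 0.213 and 1.16 CPM in colon. The groups were far apart in both classes, with changes of -5.79 ± 0.42 (edgeR adjusted p = 0.0398) and -6.45 ± 0.63 (adjusted p = 0.0436), of a gene that passed the filter through small intestine alone. Without 1 library the changes ranged from -6.84 to -5.50 and from -8.37 to -5.96. Colon replicate 1 held 3 or fewer *Dkk2* UMIs in each of these classes, and the replicate 2 pairs gave -5.55 and -5.72. Unassigned cells were at 129.6 and 104.5 CPM in small intestine versus 2.38 and 0.318 CPM in colon.

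At 1000 UMIs per cell a *Dkk2* UMI was found in 7.65% and 10.03% of small intestinal CD81+ FB, and in 0% and 0.225% of colonic ones. In endothelial cells the share was 1.41% in small intestine replicate 1 and 0.826% in colon replicate 1, above the shares in colonic CD81+ FB. Without thinning the shares were 31.5% and 22.8% of small intestinal and 0.369% and 0.562% of colonic cells. In sub-gates of small intestinal CD81+ FB, which share cells and were not tested, cells with an *Ackr4* UMI were at 88.8 and 96.7 CPM of *Dkk2*, and cells with a *Pi16* or *Dpp4* UMI at 56.4 and 40.5 CPM, an order opposite to that of *Sfrp4*. In colon the *Ackr4* gate held 0 and 5.33 CPM and the other gate 0 and 0.574 CPM.

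The fall was smaller in PDGFRαhi FB, at 7.05 and 23.2 CPM in small intestine versus 6.87 and 5.38 CPM in colon. The colon change there was -1.25 ± 0.61 and did not pass (adjusted p = 0.565, against 0.000349 with the replicate block), and the pairs gave -0.04 and -2.11. The difference of the colon change between PDGFRαhi FB and CD81+ FB was 4.25 ± 0.87 (edgeR adjusted p = 0.0316, 11.6% of 12596 genes called, 6.7% higher and 4.85% lower), and that between PDGFRαhi FB and other PDGFRαlo FB was 4.87 ± 0.93 (adjusted p = 0.0374, 6.76% called, 3.56% higher and 3.19% lower). No member was called for the difference between CD81+ FB and other PDGFRαlo FB by edgeR (3 with an unadjusted p under 0.05, where 4.07% of genes were called, 1.56% higher and 2.51% lower). Both *Dkk2* calls are lost without colon replicate 1 (adjusted p = 0.269 and 0.365) and without colon replicate 2 (0.344 and 0.368). PDGFRαhi FB held 1.12% and 2.32% of the *Dkk2* UMIs of small intestine and 63.6% and 46.5% of those of colon. SMC were at 17.9 and 74.3 CPM in small intestine versus 2.95 and 6.97 CPM in colon, a change of -3.12 ± 0.77 that did not pass (adjusted p = 0.179, against 0.00145 with the replicate block). That change goes with the markers of CD81+ FB and other PDGFRαlo FB in small intestinal SMC given above, whose part in it was not tested. No pericyte had a *Dkk2* UMI in any library.

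*Dkk3* (chr7:112116017-112159057, minus strand), the divergent Dickkopf gene, was present in all stromal classes. PDGFRαhi FB held 313 and 272 CPM in small intestine versus 476 and 303 CPM in colon, and SMC 231 and 269 CPM and 410.5 and 310.3 CPM. Other PDGFRαlo FB held 187 and 219 CPM and 284 and 200.1 CPM, and CD81+ FB 118 and 144 CPM and 152 and 106 CPM. PDGFRαhi FB were above SMC in 3 of 4 libraries, and SMC above other PDGFRαlo FB and these above CD81+ FB in 4 of 4. Against the other classes PDGFRαhi FB were 0.54 ± 0.11 higher (adjusted p = 0.00203), SMC 0.39 ± 0.11 higher (0.0157) and CD81+ FB lower, with a contrast of -0.86 ± 0.12 (9.31e-05). The SMC call is lost without colon replicate 1 (0.104) or colon replicate 2 (0.122).

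No colon change of *Dkk3* passed the test in a class, and they lay between -0.16 and 0.55. With the replicate block the change in PDGFRαhi FB is called (0.50, edgeR adjusted p = 0.0328). The change in PDGFRαhi FB exceeded that in CD81+ FB by 0.67 ± 0.16 (edgeR adjusted p = 0.0112), a call lost without small intestine replicate 2 (0.157), colon replicate 1 (0.0618) or colon replicate 2 (0.0863). Endothelial cells of small intestine replicate 1 held 4.28 CPM and those of colon replicate 1 held 7.44 CPM. Without thinning, 30.7% to 96.5% of the cells of a tested FB class had a *Dkk3* UMI, and at 1000 UMIs per cell the share was 23.1%, 24.9%, 40.9% and 27.4% in PDGFRαhi FB.

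Gene patterns most like those of the members were read from the Pearson correlation of log2(CPM + 10) over 20 sums (5 classes in 4 libraries) among 8688 genes. These sums share libraries and depth, so the values are descriptions. *Wif1* was closest to *Bean1* (r = 0.9497), *Tspan13* (0.948) and *Palmd* (0.944), and *Sfrp1* to the complement gene *C4b* (0.952), *Apoe* (0.924) and *Ptprd* (0.924). The closest to *Dkk3* were *Wfdc1* (0.924), *Cped1* (0.907) and *Tmeff1* (0.900), and to *Rspo3* *Adamts19* (0.912), *Dapk1* (0.903) and *Apoe* (0.898). *Sfrp4* was closest to *Emilin2* (0.880), *Pi16* (0.879) and *Lrrn4cl* (0.856), *Dkk2* to *Shisa3* (0.858), *Sorl1* (0.838) and *Mmp3* (0.816), and *Frzb* to *Fgfr2* (0.854), *Ddah1* (0.808) and *Hcar1* (0.779). *Pi16* and *Fgfr2* are gate markers, of CD81+ FB and of other PDGFRαlo FB. *Rspo1*, *Rspo2* and *Sfrp2* were below the mean of 10 CPM required.

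The ligands that these factors act on were read from a list of 19 *Wnt* genes. In colon against small intestine 1 of 5 tested was called in PDGFRαhi FB, 1 of 8 in CD81+ FB, 2 of 9 in other PDGFRαlo FB and 0 of 6 in SMC (4 with an unadjusted p under 0.05, 1 called by DESeq2), all called ones higher in colon. Over all genes 0.791%, 0.394%, 0.47% and 0.45% were called in the same order (0.361%, 0.146%, 0.255% and 0.118% higher). *Wnt2*, a ligand of the β-catenin branch, was at 1.72 and 1.35 CPM in small intestinal and 35.8 and 35.0 CPM in colonic CD81+ FB (4.45 ± 0.33, edgeR adjusted p = 0.0398). In other PDGFRαlo FB it was at 1.48 and 0.533 CPM in small intestine versus 32.4 and 28.2 CPM in colon (5.24 ± 0.48, adjusted p = 0.0387), and in both classes it passed the filter through colon alone. *Wnt5b*, a ligand mostly tied to β-catenin-independent signalling, was at 14.1 and 8.42 CPM in small intestinal and 84.4 and 87.8 CPM in colonic PDGFRαhi FB (3.11 ± 0.36, adjusted p = 0.0492). It also rose in other PDGFRαlo FB (3.15 ± 0.27, adjusted p = 0.0332).

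**Figure D4:**
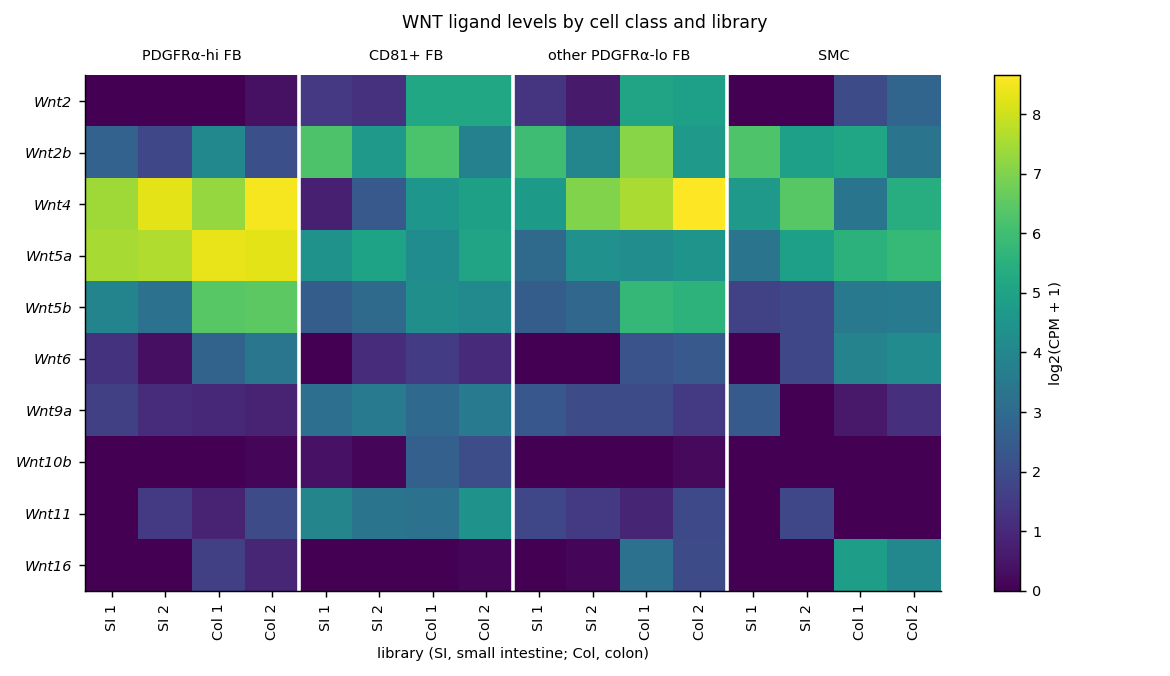
Level (colour, log2 of CPM + 1) of the WNT ligands that entered a test (rows) in the 4 tested classes of the 4 libraries (columns, SI for small intestine and Col for colon). *Wnt2* is brighter in the colon columns of CD81+ FB and other PDGFRαlo FB, *Wnt5a* in PDGFRαhi FB, and *Wnt2b* and *Wnt4* differ between replicate numbers.

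By class, 6 of 8 tested ligands were called in PDGFRαhi FB (3 higher, 3 lower), 6 in CD81+ FB (4 higher, 2 lower), 4 in other PDGFRαlo FB (3 higher, 1 lower) and 3 in SMC (1 higher, 2 lower). Over all genes 31.2%, 35.8%, 14.4% and 35.4% were called in the same order, so the count in SMC is near that share. PDGFRαhi FB were higher for *Wnt5a* (3.17 ± 0.20), *Wnt4* (2.70 ± 0.53) and *Wnt5b* (1.67 ± 0.25), the class that also held *Wif1*. In both colon libraries *Wnt4* was higher in other PDGFRαlo FB, at 185 and 401 CPM against 155 and 368 CPM in PDGFRαhi FB. In small intestine it was lower there, at 25.1 and 127 CPM against 170 and 311 CPM. PDGFRαhi FB were lower for *Wnt2* (-6.23 ± 0.42), *Wnt2b* (-2.62 ± 0.39) and *Wnt9a* (-1.67 ± 0.39). The rule for named genes does not take *Wnt5b* and *Wnt9a* here, and they were added after their values were seen. CD81+ FB, the class of the R-spondins, were higher for *Wnt11* (4.10 ± 0.35), *Wnt2* (3.70 ± 0.24) and *Wnt9a* (2.81 ± 0.26). *Wnt11* and *Wnt9a* reached the level of the low-count filter in all 4 libraries of CD81+ FB and of no other class. *Wnt2* reached it in colon alone. The class calls of these ligands are thus descriptions.

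Of 15 receptors (*Fzd*, *Lrp5*, *Lrp6*, *Ror* and *Ryk* genes), 10 to 12 were tested per class and 0 were called between intestines by edgeR or DESeq2 (9 of 46 tests over the 4 classes had an unadjusted p under 0.05). By class, CD81+ FB were higher for 6 of the 12, among them *Fzd4* (1.99 ± 0.24), and lower for *Fzd2* (-0.68 ± 0.20, named after its value was seen), beside 19.6% and 16.2% of all genes, and PDGFRαhi FB were higher for 2 and lower for 3 of them. Of the 5 R-spondin receptors and ligases 1 to 3 were tested per class, 0 were called between intestines by edgeR (2 of 8 tests had an unadjusted p under 0.05, and DESeq2 called 1), and of the class contrasts only *Lgr4* was called, higher in SMC (0.84 ± 0.30, adjusted p = 0.0396, named after its value was seen). Of 13 other modulators 4 were tested, and 0 were called between intestines by edgeR (5 of 16 tests had an unadjusted p under 0.05, and DESeq2 called 1). By class, all 4 were called for PDGFRαhi FB and for SMC (1 higher and 3 lower in each), beside 31.2% and 35.4% of all genes. For CD81+ FB and for other PDGFRαlo FB 3 were called, all higher, beside 35.8% and 14.4%. *Apcdd1*, an inhibitor bound to the cell membrane, was lower in PDGFRαhi FB (-2.94 ± 0.26), and *Igfbp4* was higher in other PDGFRαlo FB (2.10 ± 0.38).

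Of 7 genes known to respond to WNT, 1 was called between intestines by edgeR (11 of 19 tests over the 4 classes had an unadjusted p under 0.05, and DESeq2 called 5). *Nkd1*, which encodes a feedback inhibitor of the pathway, was at 37.1 and 34.1 CPM in small intestinal and 4.29 and 4.10 CPM in colonic CD81+ FB (-3.22 ± 0.29, edgeR adjusted p = 0.0415). It was higher in SMC than in the other classes (3.09 ± 0.35). *Lef1*, a nuclear factor of the pathway, was higher in PDGFRαhi FB than in the other classes (4.21 ± 0.35). Its level there was 20.3 and 41.4 CPM in colon against 0 and 0.290 CPM in small intestine, and the change did not pass the test (adjusted p = 0.0557). Medians of the 5 lists in the colon comparisons ran from -1.36 to 1.95 (log2), beside medians over all genes between -3.19e-06 and 0.0112.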

How the data were processed

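Droplet single-cell libraries of sorted stromal cells from small intestine and colon (2 each) were analysed from the UMI counts per gene and cell that the authors deposited as 1 matrix per library. Per the labels and the methods of the study, reads were aligned to mm10 and counted with Cell Ranger 3.0.2 (replicate 1) or 3.1.0 (replicate 2), and Seurat 3 was used later. Which chemistry each library used is not given in the sources used here. The 4 matrices hold 14341443, 45640122, 22076000 and 52269372 UMIs. No cell annotation was used here. Endothelial cells and the other contaminants below were found by markers.

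Filters on cells were 500 or more genes, 1000 or more UMIs, and mitochondrial UMIs of 10% or less. Cells with a scrublet score above 0.2 were removed as doublets (26, 913, 45 and 535 cells), a threshold set after seeing the scores because the automatic one marked next to none in 1 library. Cells with at least 2 markers of endothelial, immune, glial, epithelial, mesothelial, Cajal or nerve-associated cells were set aside. Each other cell went to the class with the highest mean marker score (within-library z, capped at 3, of log-normalized counts) if that was above 0 and led by at least 0.3, with at least 3 markers detected for SMC and 2 for pericytes. Between 90 and 1178 of the 979 to 9547 gated cells of a library led by under 0.4. The scoring was set after marker levels, but not member levels, were seen. The members, lists and tests were chosen with earlier results of these data known.

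UMIs were summed per class and library and tested with edgeR 4.0.16 in R 4.3.3 (TMM, filterByExpr, robust quasi-likelihood fit) over all genes that passed the filter, in Python 3.11.15 and scanpy 1.11.5 before that. Same-numbered libraries share the Cell Ranger version in the labels and the barcode starts, so the number marks a technical batch, and their deviations from the group means correlated at 0.7956, 0.7129, 0.7981 and 0.595 across genes in PDGFRαhi FB, CD81+ FB, other PDGFRαlo FB and SMC. Colon was set against small intestine per class without a block in the main fit, classes against each other with library as a block, and the tissue by class difference as an interaction. P-values were adjusted over all genes tested. On simulated counts the colon fits recovered 94%, 96%, 95% and 84% of 200 changed genes in PDGFRαhi FB, CD81+ FB, other PDGFRαlo FB and SMC. These counts were drawn independently per library, with a fixed dispersion, no batch and large changes planted in genes over the filter. The shares check the code and do not estimate power in the real data. Alternatives were DESeq2 1.42.0, other size factors, no filter on low counts, a log2 fold beyond 1.5, a replicate block, classes from clusters, at least 1000 genes per cell, doublets kept and each library left out. Shares of cells with a UMI were also taken after thinning to 1000 UMIs. Intervals (exact, 95%) and floors (3 counts) cover counting error only. Named were all members, at most the 6 pathway genes with the largest called change per comparison, and per member the 3 genes most like it. Promoter sequences came from RefSeq, GRCm38.p6, and gene positions from the GENCODE annotation of GRCm38.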

Additional observations from a re-analysis of the deposited data

Results flagged for a closer look

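The change of *Dkk2* from small intestine to colon differed between fibroblast classes by a test of the difference itself. It was 4.25 (log2) higher in PDGFRαhi FB than in CD81+ FB (edgeR interaction, adjusted p = 0.0316), and 4.87 higher in PDGFRαhi FB than in other PDGFRαlo FB (adjusted p = 0.0374). Both calls are lost when colon replicate 1 or colon replicate 2 is left out. In PDGFRαhi FB the same-numbered pairs gave -0.04 and -2.11, and *Dkk2* of small intestine replicate 2, at 23.2 CPM there, stands beside 530.4 CPM of CD81+ FB markers, whose part was not tested. The change of *Dkk3* was 0.67 higher in PDGFRαhi FB than in CD81+ FB (edgeR interaction, adjusted p = 0.0112), with pairs of 0.61 and 0.15 in the first class and 0.37 and -0.43 in the second. This call is lost when small intestine replicate 2 or a colon library is left out. No group here has the 4 samples needed to look for a sample far from the others.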

How the results depend on the processing

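The called colon changes of *Rspo2* and *Sfrp4* in CD81+ FB kept their direction under every alternative run. The replicate block, which pairs same-numbered libraries, called 3 members in PDGFRαhi FB, 6 in CD81+ FB, 8 in other PDGFRαlo FB and 3 in SMC, against 0, 3, 2 and 0 without it, and 2722, 686, 1626 and 765 genes of all against 92, 46, 57 and 42. DESeq2 called 1, 6, 5 and 2 members in those classes (553, 268, 388 and 233 genes), and without the low-count filter 1, 6, 4 and 3 were called (519, 582, 329 and 570 genes). Classes from clusters gave 2 members in SMC (192, 83 and 205 genes in PDGFRαhi FB, CD81+ FB and SMC), and 1000 genes per cell gave 1 member in SMC (74 genes). Keeping doublets left 28 genes in CD81+ FB and 4 in SMC. With 1 library left out, so that the lone library is assumed to vary like the others, 0 to 222 genes were called in PDGFRαhi FB, 8 to 128 in CD81+ FB, 40 to 120 in other PDGFRαlo FB and 97 to 238 in SMC, and members called ranged from 1 to 4 in CD81+ FB and from 0 to 3 in SMC. For class contrasts the members called ranged from 5 to 8 in CD81+ FB (24.5% to 29.6% of all genes), 1 to 3 in other PDGFRαlo FB (4.97% to 11.3%) and 0 to 3 in SMC (20.04% to 32.6%), and clusters gave 5 in other PDGFRαlo FB (11.9%). For the tissue by class difference they ranged from 0 to 3 (PDGFRαhi FB minus CD81+ FB, 4.11% to 9.2% of all genes), 0 to 2 (minus other PDGFRαlo FB, 3.48% to 5.44%) and 0 to 1 (CD81+ FB minus other PDGFRαlo FB, 0.873% to 3.84%), with 4, 3 and 2 without the filter (10.05%, 6.93% and 5.17%), and 2 and 1 for the last pair of differences from clusters (10.08% and 5.82%).

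Signs turned for *Wif1* in PDGFRαhi FB (0.22, from -0.27 to 0.92 with 1 library left out, the lowest when small intestine replicate 2 was dropped, and -0.01 without colon replicate 1), for *Dkk3* in CD81+ FB (-0.16, from -0.40 to 0.046, above 0 without colon replicate 2), and, with classes from clusters, for the contrasts of *Sfrp2* (0.11) and *Sfrp4* (1.57) in SMC. The *Sfrp4* contrast in SMC was called at -1.81 and lost its call under 6 settings, down to -0.19 without colon replicate 2 (adjusted p = 0.759). Class calls were also lost for *Wif1* in CD81+ FB without colon replicate 2 (adjusted p = 0.117), and without small intestine replicate 2 for *Sfrp2* in SMC (0.0949) and in PDGFRαhi FB (0.0580). The cause was not tested. Counts near 0 make ratios imprecise for *Sfrp2*, with 2 UMIs in all in small intestine, and for *Wif1* outside PDGFRαhi FB.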

Other observations

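Cells set aside by the gate also held members. Colonic interstitial cells of Cajal (15 and 55 cells) were at 1034 and 336 CPM of *Sfrp4*, 133 and 156 CPM of *Rspo3* and 122 and 16.4 CPM of *Sfrp2*. Nerve-associated cells of colon (4 and 76 cells) were at 140 and 124 CPM of *Sfrp4* and 225 and 35.3 CPM of *Rspo3*. These classes held 3 and 4 Cajal cells and 0 and 1 nerve-associated cells in small intestine, so no comparison between intestines was made, and in the few Cajal cells of small intestine *Wif1* was at 27.8 and 382 CPM.

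Some genes of the pathway differed more by replicate number than by intestine. *Apcdd1* was at 43.3 and 13.8 CPM in CD81+ FB of the replicate 1 libraries of small intestine and colon, against 7.15 and 0.878 CPM in the replicate 2 libraries. *Wnt2b* was at 73.9 and 72.5 CPM against 23.8 and 12.98 CPM in the same order. Among the members, *Wif1* in PDGFRαhi FB (109.3 and 99.8 CPM against 47.1 and 66.1 CPM) and *Frzb* in other PDGFRαlo FB (82.8 and 67.1 CPM against 60.3 and 25.6 CPM) were higher in both replicate 1 libraries than in both replicate 2 libraries.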
